A study of Oryctolagus cuniculus with 9 samples.

Results

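The endothelin system was followed through its peptide genes EDN1, EDN2 and EDN3, its receptor genes EDNRA and EDNRB, and the converting enzyme genes ECE1 and ECE2. The rows were chosen by symbol, and EDN1 and EDN2 were singled out because they had been seen to move in opposite directions in these libraries. Of the 7 symbols, 6 were among the 19291 genes of the deposited tables, and ECE2 was not found there under that symbol. The counts of 4 of the 6 (EDN1, EDN2, EDNRA and ECE1) were high enough to be tested, out of 12324 genes tested in all. The levels and fold changes of EDN1 and EDN2 are given as a description without a test, since their direction in these samples chose them.

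Endothelins are short vasoactive peptides. They are made as long precursors, cut first by furin-like proprotein convertases and then by the endothelin-converting enzymes, and secreted. The peptides act on a pair of G protein-coupled receptors: EDNRA, the main receptor of smooth muscle cells, drives contraction and growth, whereas EDNRB is found mostly on endothelium and neural crest derivatives and also clears the peptides. EDN1 is the main endothelin of the vessel wall and is best known as a product of endothelial cells. In the uterus the system is known for its effects on muscle contraction.

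The 9 mRNA libraries came from HA-VSMC, a cultured line given in the labels as rabbit (Oryctolagus cuniculus), a species that was not checked. They form a control group, a group given β-estradiol (the main ovarian estrogen) at 50 nM and a group given it at 250 nM, with 3 libraries in each. Cells were harvested after 48 h in RPMI1640 with 10% FBS, and β-estradiol had been dissolved in DMSO with sodium hydrogen carbonate. The labels do not say whether the controls received that vehicle; their treatment tag reads estrogen and their concentration tag WT. The labels do not describe the replicates as separate cultures, and the p-values below refer to the variation among these libraries only, part or all of which may be technical.

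Library totals lay between 54718407 and 72274464 deposited count units. About 4 units per fragment were assumed, and the fragment numbers and counting errors below rest on that assumption. Of the smooth muscle markers, ACTA2 and CALD1 were abundant, with 1322 ± 46.0 and 415 ± 14.3 FPKM in controls (a level scaled to transcript length and library depth; SD, n = 3). MYH11, the myosin of contractile smooth muscle, had 4.65 ± 0.39 FPKM in controls, DES was at 0 in every library, and TAGLN and CNN1 were not found under those symbols. In controls SMTN and SYNPO2 averaged 28.6 and 7.11 FPKM. LMOD1, MYLK, MYOCD and ACTG2 were low there, at 0.45, 0.41, 0.41 and 0.06 FPKM. Fibroblast markers were high as well, led by collagen I, and their summed level was 4660 to 4920 FPKM in controls, 5180 to 5400 FPKM at 50 nM and 5260 to 5460 FPKM at 250 nM. All 8 were tested: 2 rose at 50 nM, COL1A1 (0.18 ± 0.04 on the log2 scale, edgeR adjusted p = 0.026) and COL1A2 (0.18 ± 0.04, edgeR adjusted p = 0.0159), and 1 at 250 nM, COL1A1 (0.22 ± 0.04, edgeR adjusted p = 0.0401). Of all genes tested, 1.55% rose at 50 nM and 0.203% at 250 nM. DESeq2 called 2 of the 8 at each concentration, and limma on log2(FPKM + 1) called 0 at either. None of the 8 was at 0, PDGFRA averaged no more than 0.37 FPKM in any group, and the part of these markers in the results on the endothelin genes was not tested. With edgeR 0 of the 9 tested smooth muscle markers passed in any comparison (1 at an unadjusted p under 0.05 at each concentration against control), and DESeq2 called 0. Apart from FLT1, the endothelial genes in the tables were low. KDR was at 0 in all 9 libraries, and PECAM1, CDH5, VWF, TEK and ERG averaged no more than 0.21 FPKM in any group. CLDN5 averaged at most 0.54 FPKM (at 50 nM) and TIE1 at most 0.16 FPKM (at 250 nM). For genes at 0, such as KDR, DES and EPCAM, whether reads could be aligned and assigned to them was not tested. FLT1, at 16.2 ± 1.43 FPKM in controls, made up most of the endothelial list, whose summed level ranged from 15.9 to 18.4 FPKM in controls, 16.7 to 18.3 FPKM at 50 nM and 16.4 to 17.4 FPKM at 250 nM. That list had 12 of 13 genes in the tables and 6 tested, of which 0 passed in any comparison (edgeR adjusted p under 0.05, with 0 at an unadjusted p under 0.05 and 0 by DESeq2). None of the leukocyte genes in the tables was testable (0 of 7), and their summed level was at most 0.253 FPKM in any library. Epithelial markers summed to between 30.8 and 41.6 FPKM, almost all of it KRT14, and EPCAM was at 0. Melanocyte and Schwann cell markers, cells in which EDNRB is known to act, summed to at most 5.73 FPKM, most of it MITF, and SOX10 averaged no more than 0.01 FPKM in any group.

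Per length of transcript, EDN1 was by far the most abundant endothelin gene. Its deposited FPKM was 120.4, 107 and 126 in the 3 controls, 82.8, 76.4 and 82.3 at 50 nM, and 89.9, 86.3 and 92.8 at 250 nM. Every estradiol library lay below every control, and the 50 nM libraries lay below the 250 nM libraries. In bulk RNA, fewer cells expressing a gene and less RNA per cell cannot be told apart. By FPKM, EDN1 stood at a median rank of 615 among the 19291 listed genes in controls, 923 at 50 nM and 809 at 250 nM. Scaled as CPM (counts scaled to library depth with TMM factors), its level was 166 ± 5.63 at 50 nM against 234 ± 17.8 in controls (SD, n = 3 each). The log2 fold change was -0.50 ± 0.06 (edgeR estimate ± SE), a level 1.41-fold lower at 50 nM. At 250 nM the level was 183 ± 6.34 CPM against the same 234 ± 17.8 CPM in controls, a log2 fold change of -0.35 ± 0.06. Set against 50 nM, EDN1 at 250 nM differed by 0.14 ± 0.06 on the log2 scale. Of all genes tested, 10.1% lay lower in all 50 nM libraries than in any control, 7.76% lay lower in all 250 nM libraries than in any control, and 5.94% lay higher in all 250 nM than in all 50 nM libraries.

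EDN2, a close relative of EDN1 that binds both receptors, was a minor transcript here and went the other way. Its FPKM was 4.51, 4.77 and 4.49 in controls, 7.88, 7.90 and 11.9 at 50 nM, and 5.48, 5.43 and 5.74 at 250 nM. The 3 groups did not overlap, with 50 nM at the top and controls at the bottom. Replicate 3 of the 50 nM group stood above its partners: its 232 fragments give a 95% exact Poisson interval of 10.4 to 13.5 FPKM, while that of replicate 1 (157 fragments) was 6.70 to 9.22 FPKM. These intervals cover counting error only. The mean was 13.3 ± 3.18 CPM at 50 nM against 6.40 ± 0.28 CPM in controls, a log2 fold change of 1.05 ± 0.14, or 2.08-fold. Without replicate 3 of the 50 nM group the log2 fold change was 0.84. At 250 nM EDN2 had 7.96 ± 0.24 CPM against 6.40 ± 0.28 CPM in controls (0.32 ± 0.14). Set against 50 nM, EDN2 at 250 nM differed by -0.74 ± 0.14, and by -0.53 when replicate 3 of the 50 nM group was left out. Over all genes tested, 8.88% lay higher in all 50 nM libraries than in any control, 7.75% lay higher in all 250 nM libraries than in any control, and 5.57% lay lower in all 250 nM than in all 50 nM libraries.

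**Figure D1:**
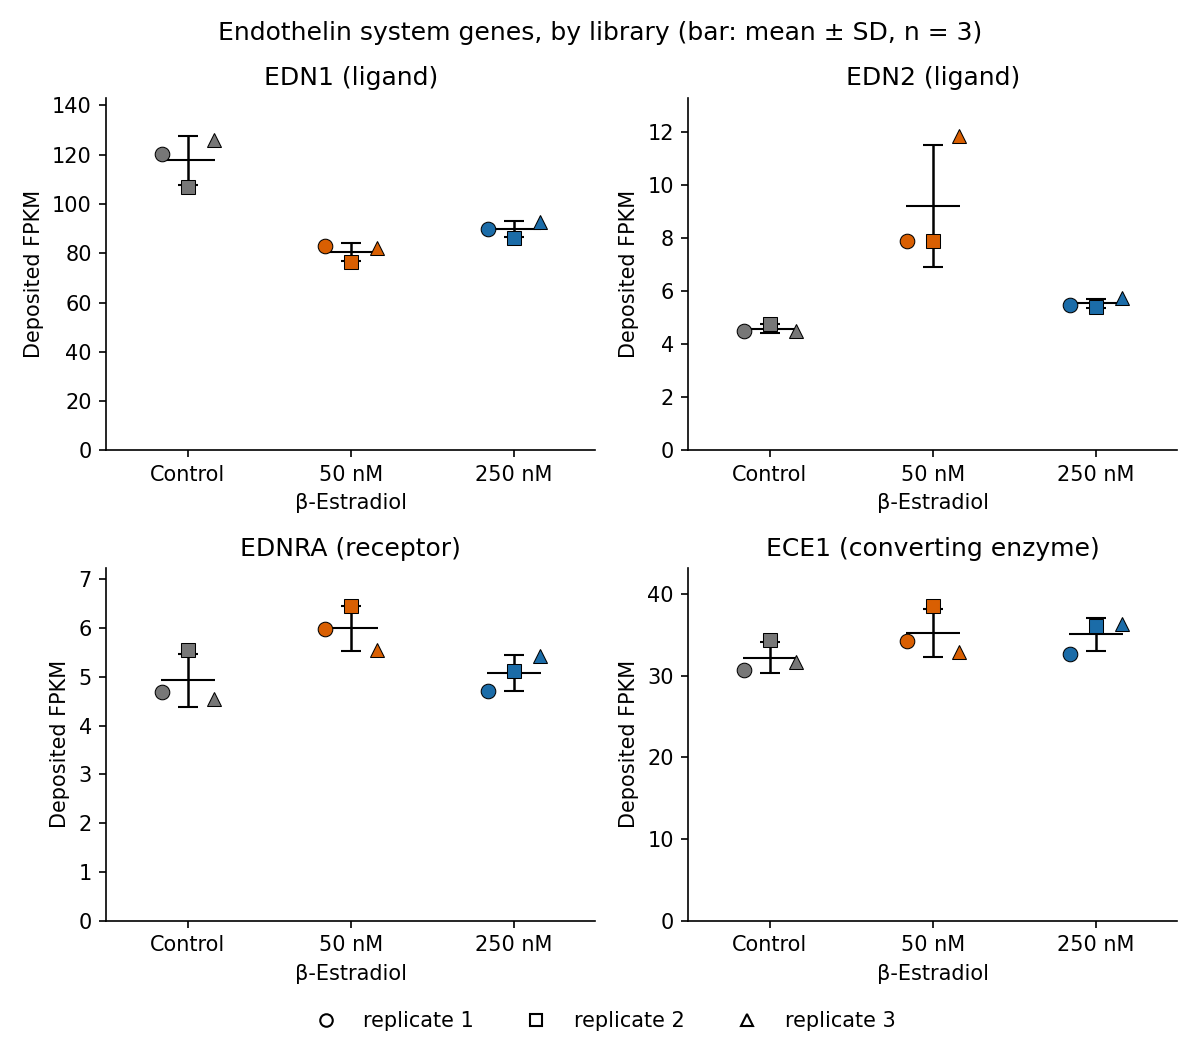
Deposited FPKM of EDN1, EDN2, EDNRA and ECE1 in each of the 9 libraries (vertical axes from 0), with the symbol giving the replicate and bars the mean ± SD of 3 libraries per group. EDN1 is lower and EDN2 higher in both estradiol groups than in controls, and EDN2 is highest in replicate 3 at 50 nM (11.9 FPKM), while the ECE1 groups overlap.

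Because EDN1 was so much more abundant, the summed FPKM of the 2 ligands followed EDN1. The sum was 122 ± 9.75 FPKM in controls, 89.7 ± 5.02 FPKM at 50 nM and 95.2 ± 3.44 FPKM at 250 nM (SD, n = 3 each). EDN2 made up 3.61%, 4.28% and 3.44% of that sum in the controls. At 50 nM its share was 8.70%, 9.37% and 12.6%, and at 250 nM it was 5.75%, 5.92% and 5.83%. EDN1 was therefore 25.7 ± 2.97 times as abundant as EDN2 in controls, 9.03 ± 1.87 times at 50 nM and 16.2 ± 0.25 times at 250 nM. The 250 nM libraries lay between the other groups, with the narrowest spread. EDN2 rested on about 102 to 232 fragments per library, a counting SD of 6.57% to 9.90%, and EDN1 on about 2286 to 4178 fragments, a counting SD of 1.55% to 2.09%.

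**Figure D2:**
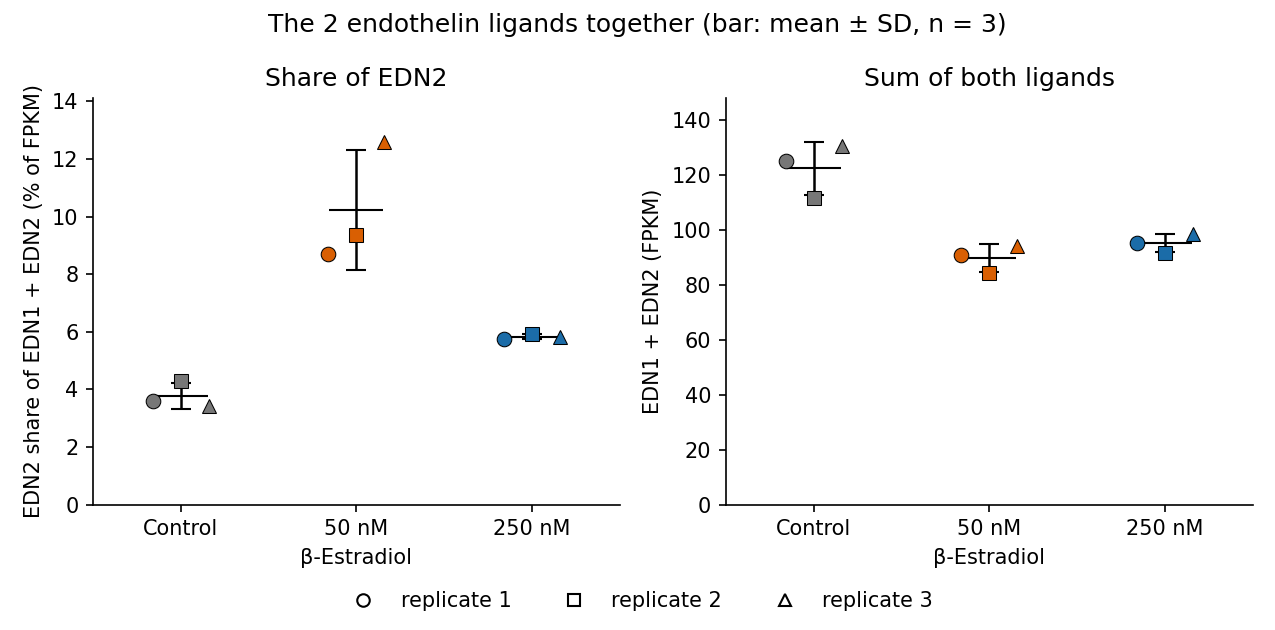
The left panel shows EDN2 as a percentage of the summed FPKM of EDN1 and EDN2, and the right panel shows that sum, for each library with the mean ± SD of 3 libraries per group. The share averages 3.77% in controls, 10.2% at 50 nM and 5.83% at 250 nM, while the sum is lower in both estradiol groups than in controls.

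EDN3, the ligand known for its role in neural crest cells, was close to absent. Its deposited counts were 4, 0 and 0 units in controls, 0, 4 and 0 at 50 nM, and 12, 9 and 0 at 250 nM. At about 4 units per fragment none of the 9 libraries held more than 3 fragments, so no fold change was computed.

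EDNRB had a count of 0 in all 9 libraries. A count of 0 allows up to 3 fragments per library, which corresponds to 0.166 to 0.219 CPM depending on the library. This limit covers counting error only, and whether reads of EDNRB could be aligned and assigned to it was not tested. The receptor that was detected was EDNRA. Its FPKM was 4.70, 5.56 and 4.55 in controls, 5.98, 6.45 and 5.54 at 50 nM, and 4.70, 5.12 and 5.43 at 250 nM. On the FPKM scale the lowest 50 nM library and control replicate 2 overlapped narrowly, and on the CPM scale the 2 groups did not overlap. EDNRA had 37.2 ± 3.27 CPM at 50 nM against 29.6 ± 3.54 CPM in controls, a log2 fold change of 0.33 ± 0.09 with a 95% interval of 0.14 to 0.53. It missed the threshold of 0.05 (edgeR quasi-likelihood test, edgeR adjusted p = 0.0682). At 250 nM it had 31.3 ± 2.40 CPM against 29.6 ± 3.54 CPM in controls (0.08 ± 0.09, 95% interval -0.11 to 0.28, edgeR adjusted p = 0.881). The difference of 250 nM from 50 nM was -0.25 ± 0.09 (edgeR adjusted p = 0.624).

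Whether EDNRA passed at 50 nM depended on the setting. It passed with DESeq2 (adjusted p = 0.018), without the filter on low counts (edgeR adjusted p = 0.0368), with the replicate number as a block (edgeR adjusted p = 0.0345), without control replicate 2 (edgeR adjusted p = 0.0166) and without 50 nM replicate 3 (edgeR adjusted p = 0.0308). Over all alternatives that kept every library, its adjusted p ranged from 0.018 to 0.229, and its log2 fold change was positive in each.

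ECE1, the membrane protease that cuts big endothelin to the active peptide, was well expressed. Its FPKM was 30.7, 34.3 and 31.7 in controls, 34.2, 38.6 and 32.9 at 50 nM, and 32.7, 36.1 and 36.4 at 250 nM, and the groups overlapped in all 3 comparisons. ECE1 had 127 ± 12.2 CPM at 50 nM against 112 ± 7.61 CPM in controls (0.18 ± 0.08, 95% interval 0.02 to 0.34, edgeR adjusted p = 0.246). At 250 nM it had 125 ± 8.15 CPM against the same 112 ± 7.61 CPM (0.16 ± 0.08, 95% interval 0.00123 to 0.32, edgeR adjusted p = 0.571). The difference of 250 nM from 50 nM was -0.02 ± 0.08, with a 95% interval of -0.18 to 0.14. Of EDNRA and ECE1, the 2 tested members other than EDN1 and EDN2, 0 passed in any comparison with edgeR. Both had an unadjusted p under 0.05 at 50 nM, as did ECE1 at 250 nM against control and EDNRA at 250 nM against 50 nM, and DESeq2 called 1 of them, EDNRA, at 50 nM. Over all genes tested, 3.25% passed at 50 nM (1.55% higher and 1.7% lower), 0.308% at 250 nM (0.203% higher and 0.105% lower) and 0.325% between the concentrations (0.187% higher and 0.138% lower at 250 nM).

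**Figure D3:**
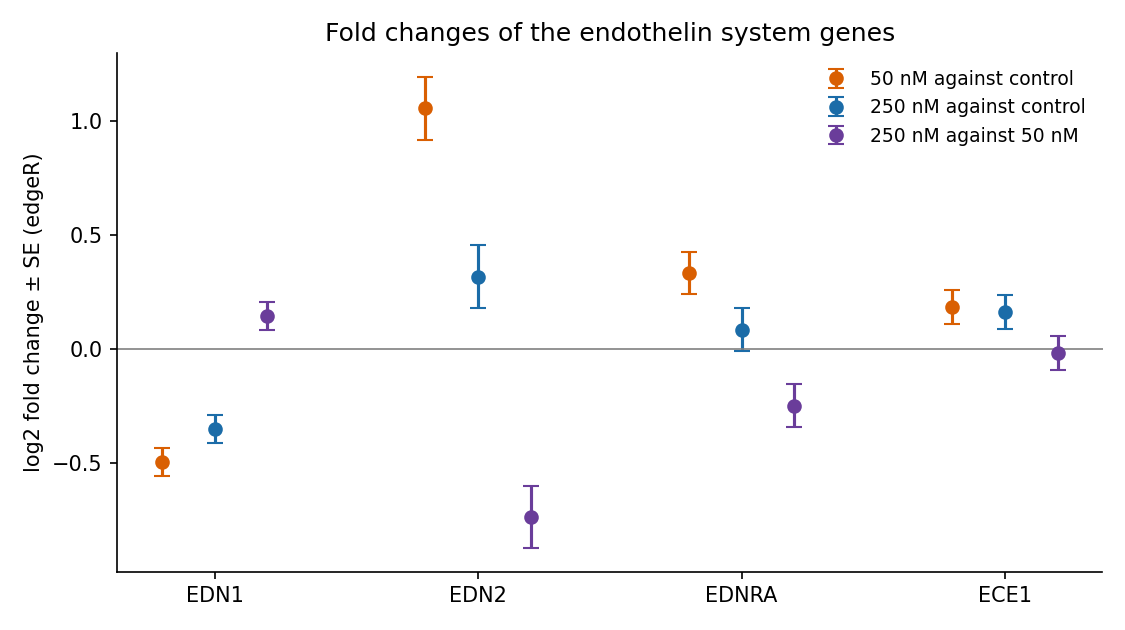
Log2 fold changes of EDN1, EDN2, EDNRA and ECE1 with their standard errors from the edgeR fit over all 9 libraries, for 50 nM against control, 250 nM against control and 250 nM against 50 nM. EDN1 is negative and EDN2 positive against control at both concentrations, and the value of EDN2 is larger at 50 nM (1.05) than at 250 nM (0.32).

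Ordered by FPKM, the members ran EDN1, ECE1, then EDN2 and EDNRA, then EDN3 and EDNRB in every group. EDN2 and EDNRA exchanged places. In controls they overlapped, with EDN2 between 4.49 and 4.77 FPKM and EDNRA between 4.55 and 5.56 FPKM. At 50 nM every EDN2 library (7.88 to 11.9 FPKM) lay above every EDNRA library (5.54 to 6.45 FPKM), and at 250 nM the ranges of 5.43 to 5.74 FPKM for EDN2 and 4.70 to 5.43 FPKM for EDNRA met at their edges. Among the controls, replicate 2 had the lowest EDN1 level and the highest EDN2, EDNRA and ECE1 levels. Without it the log2 fold changes at 50 nM were -0.56 for EDN1, 0.44 for EDNRA and 0.24 for ECE1.

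The enzymes that act before and after ECE1 were next. Of 12 genes for maturation and breakdown of endothelins, 10 were in the tables and 8 were tested. With edgeR 0 of the 8 passed in any comparison, and 1 had an unadjusted p under 0.05 (at 50 nM), the convertase PCSK7, named because of that p (0.19 ± 0.06, edgeR adjusted p = 0.11). DESeq2 called PCSK7 at 50 nM (adjusted p = 0.0372) and 0 of the 8 in the other comparisons. FURIN, a convertase that cuts endothelin precursors, had 35.1 ± 0.42 FPKM in controls, 35.4 ± 0.85 FPKM at 50 nM and 34.4 ± 0.23 FPKM at 250 nM. MME, which encodes the endothelin-degrading protease neprilysin, averaged no more than 0.18 FPKM in any group, and CTSA, a lysosomal carboxypeptidase that degrades endothelin, 83.8 to 87.3 FPKM. The median log2 fold change of the 8 was 0.14 at 50 nM and 0.05 at 250 nM, against -0.00196 and -0.00471 over all genes tested.

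Downstream of the receptors, 26 of 32 genes for G proteins, phospholipase C, protein kinase C, calcium release, contraction and receptor desensitisation were in the tables. Of the 23 tested, 0 passed in any comparison with edgeR, 0 had an unadjusted p under 0.05 and DESeq2 called 0. GNAQ, the G protein through which EDNRA raises calcium, had a log2 fold change of 0.03 ± 0.11 at 50 nM and 0.07 ± 0.11 at 250 nM. PLCB1, the highest of the 3 phospholipase C-β genes in the tables, was itself low (0.63 to 0.67 FPKM by group). The median of the list was 0.03 at both concentrations.

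Of 21 transcription factors known to act on the EDN1 gene, 15 were in the tables and tested. At 50 nM 2 of the 15 fell and 0 rose, and these were FOS and JUN, which together form the AP-1 factor that activates EDN1. Over all genes tested, 1.7% fell and 1.55% rose at 50 nM, and 0.105% fell at 250 nM. Between the concentrations 0.187% of all genes were higher at 250 nM. FOS had 38.1 ± 3.55 CPM at 50 nM against 111 ± 14.0 CPM in controls (-1.55 ± 0.10, edgeR adjusted p = 3.61e-07). JUN had 86.0 ± 1.90 CPM at 50 nM against 101 ± 1.78 CPM in controls (-0.23 ± 0.05, edgeR adjusted p = 0.0279). At 250 nM FOS fell (-0.61 ± 0.10, edgeR adjusted p = 0.0146) and JUN had 108 ± 4.52 CPM and 0.10 ± 0.05 (edgeR adjusted p = 0.643). Both were higher at 250 nM than at 50 nM, by 0.93 ± 0.10 for FOS and 0.34 ± 0.05 for JUN (edgeR adjusted p = 0.000366 and 0.00933). FOS was highest in controls and lowest at 50 nM, the same order of groups as EDN1, while JUN was highest at 250 nM. EDN1 had been chosen for its direction in these libraries, and a part of FOS or JUN in its level was not tested. SMAD3, which carries TGF-β signals to EDN1, had 0.32 ± 0.09 at 50 nM and missed the threshold (edgeR adjusted p = 0.0524), which it passed with DESeq2 (adjusted p = 0.0147). Its level was 14.6 ± 0.86 CPM in controls, 18.3 ± 1.52 CPM at 50 nM and 18.3 ± 0.89 CPM at 250 nM. An unadjusted p under 0.05 was found for 4 of the 15 at 50 nM, 3 at 250 nM and 2 between the concentrations. DESeq2 called 3, 1 and 2 of the 15 in these comparisons. GATA2 had -0.09 ± 0.06, HIF1A 0.15 ± 0.07 and VEZF1 0.06 ± 0.09 at 50 nM, all above the threshold (edgeR adjusted p of 0.294 or higher).

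The call of JUN at 50 nM was lost without control replicate 1, 2 or 3 (edgeR adjusted p = 0.0736, 0.0511 and 0.0951) and without 50 nM replicate 1 or 2 (edgeR adjusted p = 0.109 and 0.0524), and when only the control and 50 nM libraries were fitted (0.0851). That of FOS at 250 nM was lost without control replicate 1 or 3 (edgeR adjusted p = 0.0571 and 0.0939), without 250 nM replicate 2 or 3 (0.0679 and 0.101), and with limma on the FPKM values (adjusted p = 0.107 with a pseudocount of 1). For JUN between the concentrations it was lost without 50 nM replicate 1 and without 250 nM replicate 1 or 2 (edgeR adjusted p = 0.0714, 0.0824 and 0.0719). For FOS between the concentrations it was lost with limma on log2(FPKM + 1) without the filter (adjusted p = 0.0535).

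Among other vasoactive peptide systems, 24 of 32 genes were in the tables and 16 tested. The bradykinin receptors were the ones that changed: 2 of the 16 rose at 50 nM and 0 fell, against 1.55% and 1.7% of all genes tested. BDKRB1, the inducible B1 receptor, had 101.7 ± 4.36 CPM at 50 nM against 70.6 ± 7.25 CPM in controls (0.53 ± 0.07, edgeR adjusted p = 0.000588). BDKRB2, the constitutive B2 receptor, had 41.0 ± 1.25 CPM at 50 nM against 30.6 ± 2.24 CPM in controls (0.42 ± 0.07, edgeR adjusted p = 0.00394). Both calls held without any 1 of the 6 libraries. At 250 nM 0 of the 16 passed with edgeR, with 2 at an unadjusted p under 0.05, and DESeq2 called 1, BDKRB1, which had 89.5 ± 2.66 CPM (0.34 ± 0.07, edgeR adjusted p = 0.0632). It also passed there without the filter on low counts (edgeR adjusted p = 0.021), with counts divided by 4 (0.0446) and without control replicate 1 (0.0288). BDKRB2 at 250 nM was 0.10 ± 0.07 against control (edgeR adjusted p = 0.806) and -0.32 ± 0.07 against 50 nM (edgeR adjusted p = 0.0928; DESeq2 adjusted p = 0.00614). The angiotensin receptor AGTR1 was near the limit of detection, at 0.28 to 0.38 FPKM by group. The vasopressin and oxytocin receptor genes AVPR1A and OXTR were at 0 in every library, and whether their reads could be aligned and assigned was not tested. The natriuretic peptide receptors NPR2 and NPR3 were expressed, at 19.7 to 21.4 and 28.9 to 32.1 FPKM by group, with log2 fold changes of -0.05 ± 0.08 and -0.10 ± 0.06 at 50 nM.

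Of 20 nitric oxide and prostanoid genes, known to oppose or accompany endothelin in the vessel wall, 17 were in the tables and 12 tested. At 50 nM 1 of the 12 rose and 0 fell, against 1.55% and 1.7% of all genes tested. The gene that rose was PTGER4, a receptor of prostaglandin E2 (21.7 ± 1.70 CPM against 16.9 ± 0.86 CPM in controls, 0.36 ± 0.08, edgeR adjusted p = 0.021). That call was lost without control replicate 1 or 2 or 50 nM replicate 1 (edgeR adjusted p = 0.0559, 0.0691 and 0.105), with only the control and 50 nM libraries fitted (0.0582), and with limma on the FPKM values (adjusted p = 0.0923 with a pseudocount of 1). PTGS2, the inducible cyclooxygenase, had 90.1 ± 1.72 CPM at 250 nM against 59.2 ± 11.0 CPM at 50 nM and was higher there (0.61 ± 0.10, edgeR adjusted p = 0.0103). Without 50 nM replicate 2 or 250 nM replicate 1 or 2 it no longer passed (edgeR adjusted p = 0.069, 0.0578 and 0.0721), nor with limma on the FPKM values (adjusted p = 0.103 with a pseudocount of 1). At 50 nM against control it had -0.37 ± 0.10 and missed the threshold (edgeR adjusted p = 0.0607), which it passed with DESeq2 (adjusted p = 0.0102). It also passed there with the replicate number as a block (edgeR adjusted p = 0.0472), without the filter on low counts (0.0182), with at least 5 CPM in 3 libraries (0.0484), with counts divided by 4 (0.0444) and without 50 nM replicate 1 (-0.53, edgeR adjusted p = 0.00388). At 250 nM against control 0 of the 12 passed with edgeR, 2 had an unadjusted p under 0.05 and DESeq2 called 0. NOS3, the endothelial nitric oxide synthase, averaged no more than 0.03 FPKM in any group.

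Over these 5 lists together, 5 of 74 tested genes passed at 50 nM (6.76%, against 3.25% of all genes), 1 at 250 nM (1.35%, against 0.308%) and 3 between the concentrations (4.05%, against 0.325%). The lists were chosen with earlier results of these data known, so no enrichment can be read from these shares. The median log2 fold change of the 74 was 0.03 at both concentrations. The comparisons with control share their control libraries, so they are not independent of each other.

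**Figure D4:**
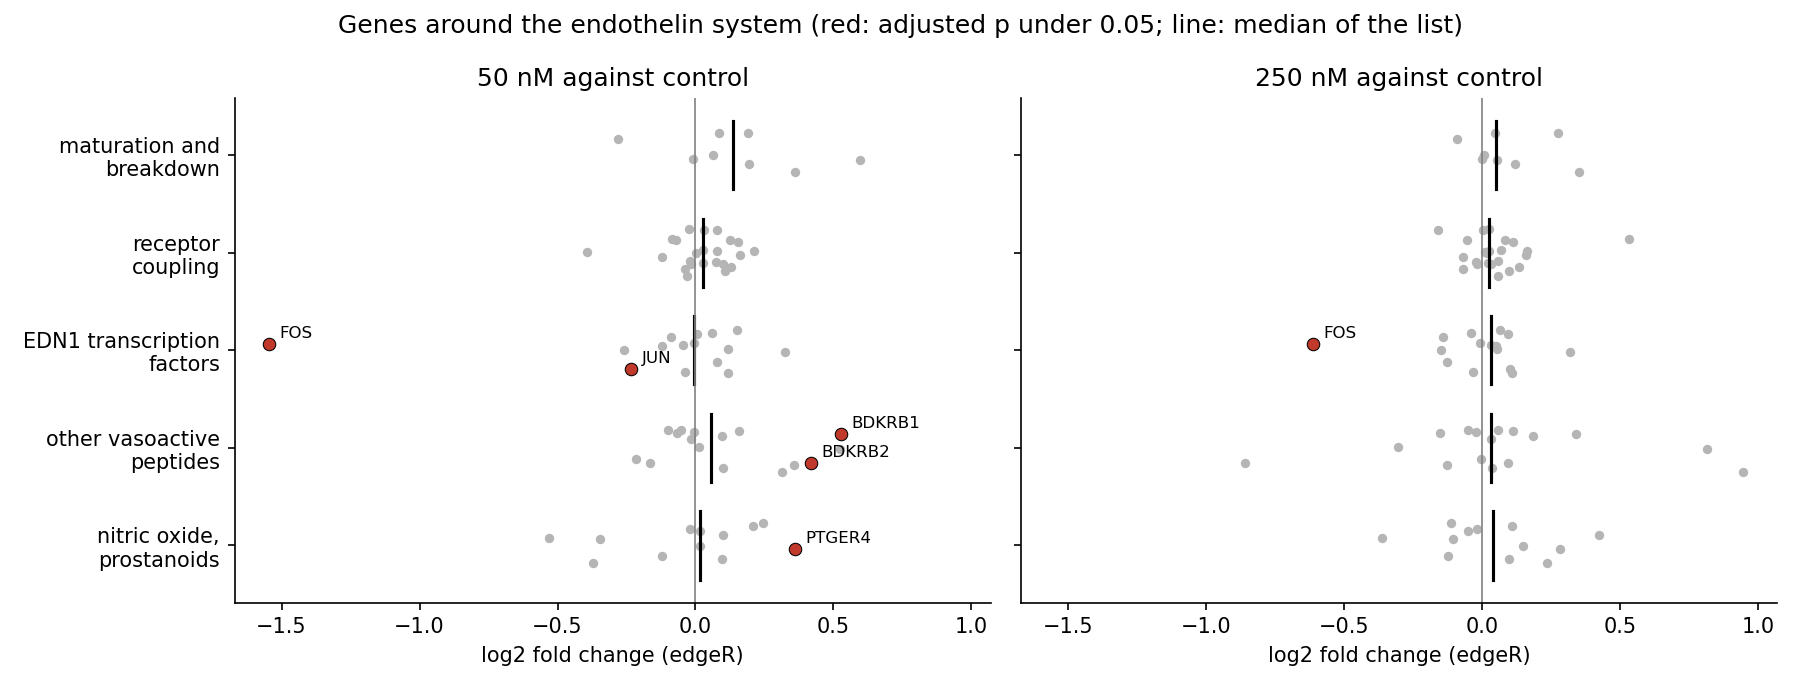
Each point is a tested gene of a list around the endothelin system, placed by its log2 fold change at 50 nM against control (left) and at 250 nM against control (right), with genes at an edgeR adjusted p under 0.05 in red and named, and a vertical line at each list's median. At 50 nM FOS (-1.55) and JUN (-0.23) lie below 0 and BDKRB1 (0.53), BDKRB2 (0.42) and PTGER4 (0.36) above it, while at 250 nM the red point is FOS.

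The genes whose log2 CPM across the 9 libraries was most like that of each ligand were listed by Pearson correlation among 7594 genes with a symbol and a mean of at least 5 CPM. The libraries form 3 groups, so these coefficients mostly reflect group differences and describe likeness. Nearest to EDN1 were KATNBL1, related to the microtubule-severing protein katanin (r = 0.985), and TBCCD1 (r = 0.978). They were followed by the MAP kinase phosphatase DUSP1 (r = 0.969), the inositol phosphate kinase IP6K3 (r = 0.951) and PDHX, a part of the pyruvate dehydrogenase complex (r = 0.949). DUSP1 was the most abundant of these at 315 ± 19.6 CPM in controls, 173 ± 7.40 CPM at 50 nM and 220 ± 3.99 CPM at 250 nM. KATNBL1 had 12.2 ± 0.52 CPM in controls, 8.76 ± 0.57 CPM at 50 nM and 9.68 ± 0.33 CPM at 250 nM. Its log2 fold changes against control (-0.47 at 50 nM and -0.33 at 250 nM) were close to those of EDN1 (-0.50 and -0.35). KATNBL1 was chosen for likeness to EDN1 in these same libraries, so the shared direction and order of groups follow largely from that choice.

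Of the 5 genes nearest to EDN2, 4 are given here: the splicing kinase CLK1 (r = 0.958), EMC4, a part of the ER membrane protein complex (r = 0.944), the transcription elongation factor SUPT5H (r = 0.933) and the transcription factor ETS2 (r = 0.926). On the log2(FPKM + 1) scale the coefficient of EMC4 was 0.83. Their range in log2 CPM was smaller than that of EDN2. CLK1 came closest in size, with 27.3 ± 2.20 CPM in controls, 46.1 ± 3.25 CPM at 50 nM and 30.6 ± 1.58 CPM at 250 nM. Replicate 3 of the 50 nM group was the highest library for all 4, as it was for EDN2. The 4 were chosen for likeness to EDN2 over these same libraries, so this follows largely from the choice and is no separate evidence on that replicate. EDN1 and EDN2 themselves had a coefficient of -0.81 over the 9 libraries. Its negative sign follows from the choice of the pair for opposite directions in these libraries.

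**Figure D5:**
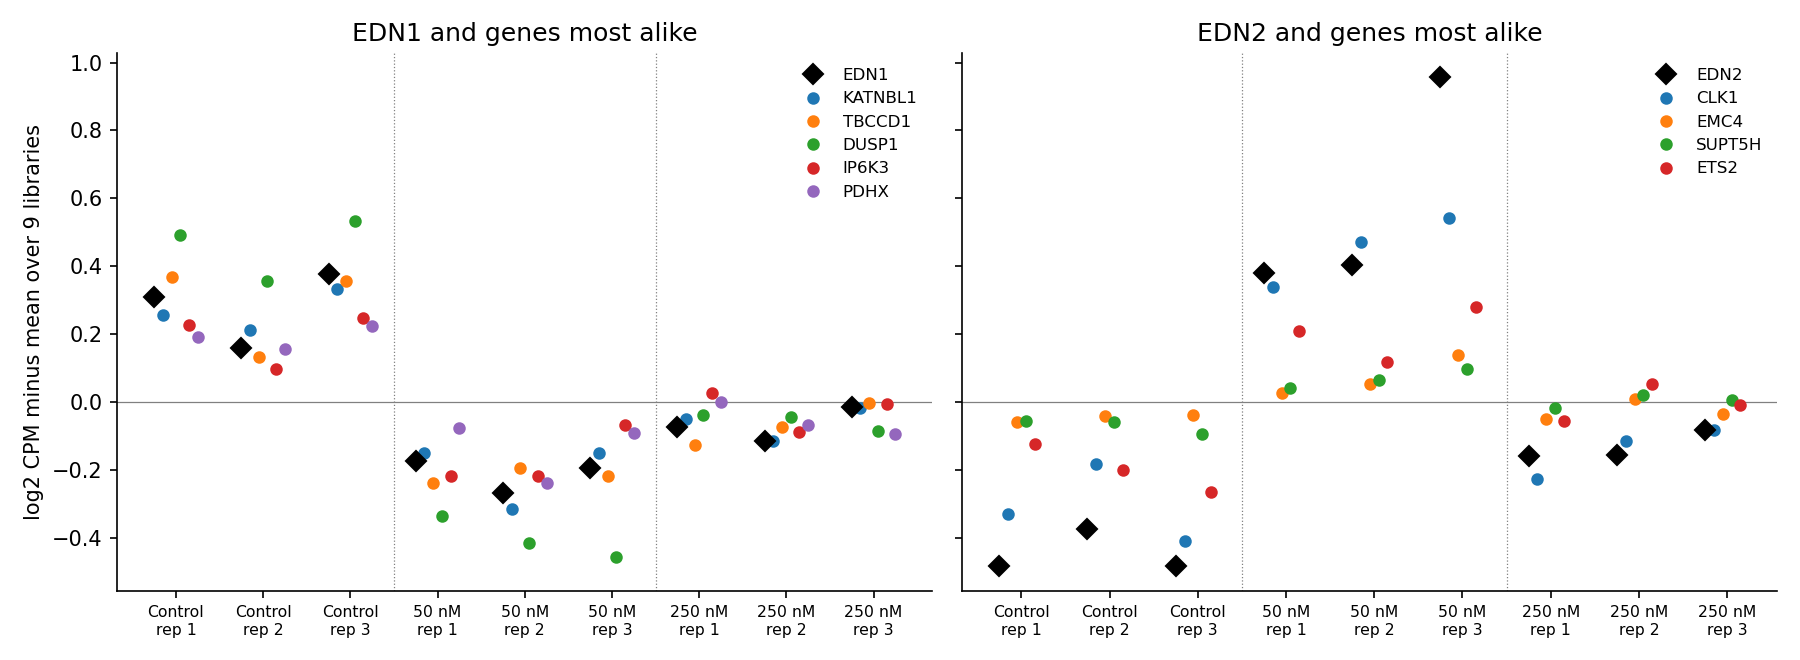
Log2 CPM minus its mean over the 9 libraries (vertical axis) for EDN1 (left) and EDN2 (right), drawn as diamonds, and for genes with the highest correlation with each (5 for EDN1 and 4 for EDN2), drawn as circles, by library. The EDN1 set is highest in the controls and lowest at 50 nM, and the EDN2 set is highest at 50 nM, where EDN2 itself reaches its maximum in replicate 3.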

How the data were processed

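mRNA libraries of 9 HA-VSMC samples were grouped by their titles. Values are the authors' estimated counts and the authors' FPKM, as deposited for each library. Trim Galore, TopHat2 2.1.1, Cufflinks and Cuffdiff are named per the submitters' processing notes; which made the counts, and the build, annotation and strand setting, are not stated in the sources used here. Deposited counts are whole numbers that pile up at 4, 8 and 12 and were used without rounding. The 4 units per fragment were assumed from this pile-up. Other low values were frequent too, with 1351 entries at 5 beside 2440 at 4. The fragment numbers, Poisson intervals, EDNRB limit and chi-square test rest on this assumption. Columns were matched by group and number (0 columns left out). All 7 member symbols are in a RefSeq table of the rabbit assembly mOryCun1.1, used for names.

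Genes were kept by filterByExpr (minimum count 10), leaving 12324. edgeR 4.0.16 in R 4.3.3 (quasi-likelihood, TMM, group as the factor, all 9 libraries) gave fold changes and p-values adjusted by Benjamini-Hochberg over all genes (threshold 0.05); scripts were tested on simulated data. Members and gene lists were chosen with earlier results of these data known. Named list genes are up to 5 per list with the lowest p among those called, plus defining members. Alternatives used DESeq2 1.42.0, limma 3.58.1 on log2 FPKM, other filters and factors, and left-out libraries. No 2 libraries of a group agreed within sampling noise (chi-square test of fragments), so none was treated as a library deposited more than once; this does not show that they are separate cultures. 1 gene among those most like EDN2 is not reported here.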

Additional observations from a re-analysis of the deposited data

How the results depend on the processing

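EDN1 and EDN2 kept their directions under every alternative run. EDN1 at 50 nM ranged from -0.55 to -0.49 on the log2 scale, and from -0.56 to -0.45 when 1 library was left out. EDN2 at 250 nM became 0.23 with limma on log2(FPKM + 1), with or without the filter. EDNRA at 50 nM passed with DESeq2 (0.34), without the filter (0.33) and with the replicate number as a block (0.34, adjusted p = 0.0345), and ranged from 0.27 to 0.44 with 1 library left out. Over all genes tested, same-numbered libraries shared little deviation from their group means (correlations between -0.03 and 0.04). A pairing in part of the genes could be missed there, and the labels do not say what a replicate number marks. With the block 492, 43 and 42 genes passed in the 3 comparisons, against 401, 38 and 40. The genes called at 50 nM were 702 with DESeq2, 234 with only the 2 groups fitted, 234 with unfiltered log2(FPKM + 1), and 187 to 565 with 1 library left out. At 250 nM they were 140 with DESeq2, 4 with each of the 3 FPKM fits, and 5 to 26 with 1 library left out. Between the concentrations they were 99 with DESeq2, 23, 26 and 11 with log2(FPKM + 1), log2(FPKM + 0.1) and the unfiltered fit, and 21 to 50 with 1 library left out. Of the 74 list genes, 8 passed at 50 nM with DESeq2, 3 with only the 2 groups, and 3 to 8 with 1 library left out. At 250 nM 2 passed with DESeq2, without the filter and with counts divided by 4 (added after the data had been seen), 0 with each FPKM fit, and 0 to 1 with 1 library left out. Between the concentrations 1 passed with unfiltered log2(FPKM + 1), and 1 to 3 with 1 library left out. The cause was not tested. EDN2, with 102 to 232 fragments per library, has the largest counting error of the tested members.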
